A study of Papio anubis with 8 samples.

Results

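The genes described here are the cytokines, chemokines and innate immune sensors of the fetal baboon hippocampus. They were taken from the deposited table by symbol: names that begin with IL, CCL, CXCL, CCR, CXCR or TLR and a digit, with NLRC, NLRP or NLRX, or with TNF, together with NOD1 and NOD2. The IL1RAPL genes, which are synaptic adhesion genes, were left out. This gave 190 genes, all annotated as protein-coding, of 37053 in the table. The rule goes by name, so it also takes genes that are not cytokines, sensors or their receptors, such as the TNF-induced TNFAIP genes and the enzyme gene IL4I1.

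RNA was taken from the hippocampus of near-term fetuses of the olive baboon, Papio anubis (0.9 of gestation), and sequenced in 8 strand-specific libraries, AMB3 to AMB10, each made from 25 ng of total RNA. The study concerns dams of differing adiposity and leptin level, but no label gives the maternal group of a library. No groups were therefore formed, and each value belongs to 1 library. The labels also do not say whether each library came from a different fetus, nor give fetal sex or the dissected part of the hippocampus.

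Interleukins and chemokines are small secreted proteins that immune and other cells use to signal to each other and to attract cells. Toll-like receptors recognise microbial molecules at the cell surface or in endosomes, and NOD-like receptors recognise microbial fragments or cell stress in the cytosol. Several NOD-like receptors form inflammasomes, which activate the caspase that matures IL-1β and IL-18. The TNF superfamily pairs ligands with receptors that steer cell survival, death and NF-κB activity. In the brain these genes are known mainly from microglia, the resident macrophages, but neurons, astrocytes and vascular cells use some of them as well.

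Depth lay between 40404878 estimated counts in AMB9 and 71648654 in AMB10, and the 190 genes took 0.113% to 0.129% of them. Levels are counts per 1000000 (CPM) on library sizes scaled in edgeR. The 16 microglial markers checked included 15 with a row, and all 15 passed the low-count filter, with a summed level of 137 CPM in AMB8, a median of 205 and 246 CPM in AMB6. Markers of lymphocytes and neutrophils were near 0: CD3D, CD3G and CD2 had at most 4 counts in any library, MS4A1 at most 6 and S100A12 at most 2, although the T cell list also holds CD3E, at 2.28 to 5.48 CPM. Hippocampal field markers were present except SPINK8, which had no count, and their sum was 798 CPM in AMB8 and 773 CPM in AMB10 against 189 to 327 CPM in the other 6 libraries. Oligodendrocyte markers also set libraries apart, with sums of 730 CPM in AMB5 to 4510 CPM in AMB10. The sum for meningeal fibroblast markers lay between 84.7 CPM in AMB8 and 462 CPM in AMB4. In such bulk RNA, fewer cells of a type and less RNA per cell cannot be told apart.

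Of the 190 genes, 17 had no count in any library, 87 had counts but stayed below the low-count filter (at least 10 counts, scaled to library size, in all 8 libraries), and 86 passed it. The share that passed was 45.3%, against 45.5% of all genes in the table and 74.5% of the protein-coding genes. Genes with no count were 17 of the set (8.95%), against 21.1% of all genes and 5.42% of protein-coding genes. They were the interleukins IL3, IL4, IL9, IL17A, IL17C, IL20, IL21, IL31 and IL1F10, the receptor IL23R, the chemokines CCL14, CCL16, CXCL5 and CXCL17, and NLRP4, NLRP8 and NLRP13. Loss below the filter fell unevenly on the roles. Only 9 of 41 interleukins, 4 of 31 chemokines and 4 of 15 chemokine receptors passed, against 25 of 39 interleukin receptors and binding proteins, 8 of 10 Toll-like receptors, 8 of 18 NOD-like receptors, 8 of 10 TNF superfamily ligands and 12 of 18 TNF receptors. Most receptors of the interleukin family thus passed the filter, and most of the ligands did not. A gene below the filter can still have counts in some libraries. Exon lengths were not used, so this does not compare levels between receptors and ligands. TNF, CCL3, CCR2, CXCL12, NLRC5 and TNFSF12 had no row under these symbols and are not analysed here.

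Variation between libraries is given as a range, the highest minus the lowest log2 CPM (prior count 2) of a gene. A range of at least 1 was reached by 47 of the 86 genes past the filter (54.7%), where 36.1% of all genes past the filter reached it, and a range of at least 2 by 13 (15.1%), where 9.0% of all genes did. With a minimum count of 30, a range of at least 2 was reached by 7 members (10.3%) and 6.17% of all genes. With no filter it was reached by 56 members (32.4%) and 20.1% of all genes, and a range of at least 1 by 124 members (71.7%) and 54.2%. The median range past the filter was 1.09, against 0.77 over all genes past the filter. These shares depend on the level, since genes with few counts have wider ranges. Among genes with a median under 2 CPM, 23 of 33 members (69.7%) reached a range of 1, and 78.3% of all such genes. Between 2 and 10 CPM the values were 20 of 33 (60.6%) and 52.9%, and over 10 CPM they were 4 of 20 (20%) and 19.0%. The members' share was below that of all genes in the lowest band, above it in the middle band and near it in the highest. With 33, 33 and 20 members in the bands, these differences rest on few genes and were not tested. The 95% Poisson intervals of the highest and lowest library did not overlap in 78 of the 86 genes, and in 68 of 86 when every count was divided by 2, since 70.4% of the whole low counts in the table were even and both mates of a pair may have been counted. These intervals cover counting error only. The highest and lowest libraries of each gene were picked from the same values, which makes an overlap less likely in any gene. The overlaps were not counted over all genes past the filter. Whether the members differ from other genes in this was therefore not tested.

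**Figure D1:**
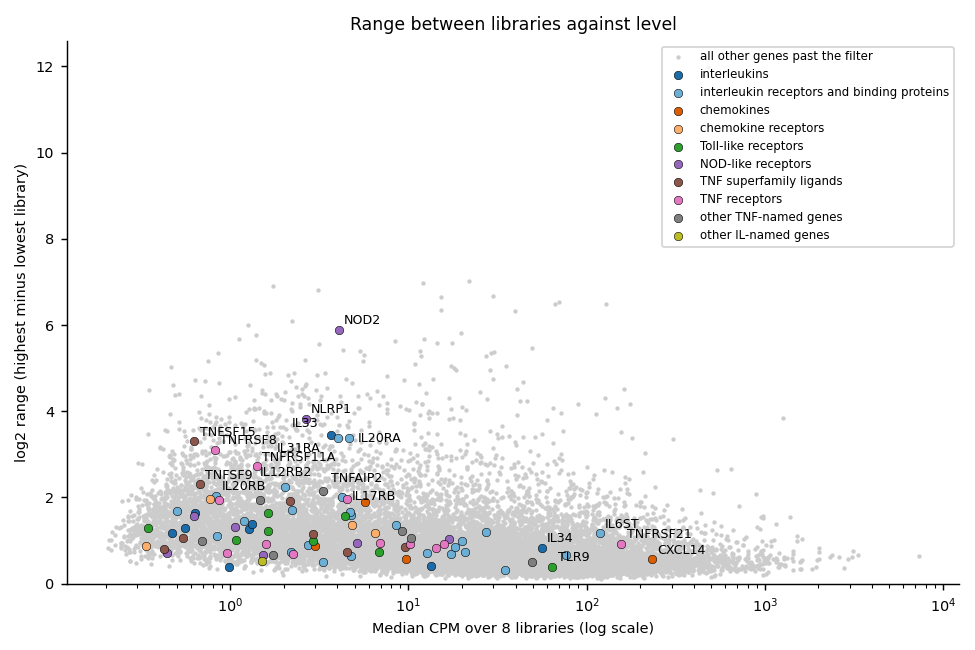
Range between libraries (log2 CPM, highest minus lowest of 8) against the median CPM (log scale), with members coloured by role and all other genes past the filter in grey. NOD2 stands highest among the members at 5.90, and the abundant CXCL14, TNFRSF21 and TLR9 lie under 1.

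**Figure D2:**
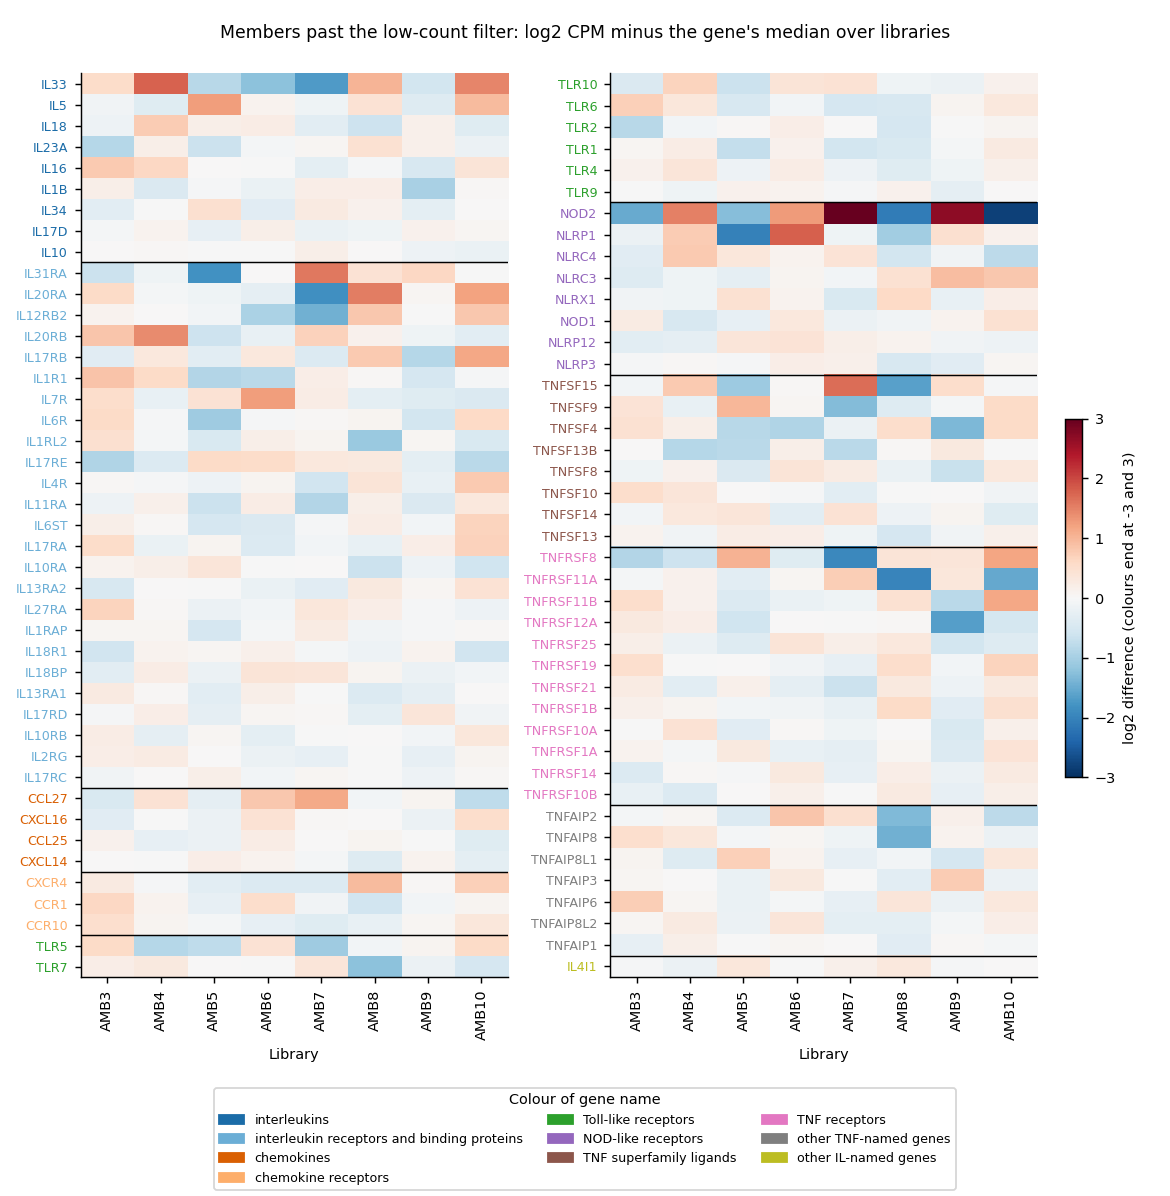
Log2 CPM of members past the filter in the 8 libraries, each gene shown relative to its own median and grouped by role. NOD2 spans the scale between AMB10 and AMB7, and the 20 members over 10 CPM mostly stay close to their medians (4 with a range of at least 1).

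Among the interleukins themselves, IL34, a ligand of the CSF1 receptor on which microglia depend, was present in every library at 44.1 to 78.8 CPM, with a median of 56.0 and a range of 0.84. Its highest value was in AMB5. IL17D, a member of the IL-17 family, was nearly level at 11.3 to 15.1 CPM (range 0.42), but its gene overlaps EEF1AKMT1 on the opposite strand over 14786 bases, and the labels do not state whether counting used the strand. IL33 had the widest range of the interleukins past the filter. This IL-1 family alarmin, a nuclear protein released from damaged cells, was at 11.7 CPM in AMB4, at 9.49 CPM in AMB10, 6.94 CPM in AMB8 and 5.07 CPM in AMB3, and at 1.04 to 2.31 CPM in AMB5, AMB6, AMB7 and AMB9. No library lay between 2.31 and 5.07 CPM, and the range was 3.46. AMB4, AMB8 and AMB10 were also the 3 libraries of highest oligodendrocyte marker sums, at 3770, 2560 and 4510 CPM, but the sum in AMB3 was 743 CPM. The part of oligodendrocyte markers in the IL33 values was not tested.

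The inflammasome products had low counts. IL18 lay between 0.836 CPM in AMB8 and 2.25 CPM in AMB4 with a range of 1.39, which was 0.85 without AMB4. IL1B lay between 0.226 CPM in AMB9 and 0.552 CPM in AMB8 with a range of 1.17, and 0.63 without AMB9. Both ranges were under 1 without 1 library, and the Poisson intervals of IL1B in AMB8 and AMB9 overlapped. The anti-inflammatory IL10 was the most even of the interleukins past the filter, at 0.851 to 1.12 CPM (range 0.38, and 0.23 without AMB7). IL16, a chemoattractant for CD4-bearing cells, had a median of 1.28 CPM and ranged by 1.27, with its highest value of 2.24 CPM in AMB3. IL23A, a subunit of IL-23, was at 0.295 to 0.776 CPM (range 1.30) and overlaps PAN2 on the opposite strand. With counts divided by 2, the intervals of its highest and lowest library overlapped. IL5, the eosinophil growth factor, was at 0.478 to 1.56 CPM (range 1.64), and its row spans 11941 bases shared with LOC101014638 on the opposite strand.

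Of the interleukin receptors and binding proteins, 14 of the 25 past the filter (56.0%) had a range of at least 1 and 5 had at least 2. Of all genes past the filter 36.1% and 9.0% did, and 52.9% of those between 2 and 10 CPM had a range of at least 1. IL6ST, the shared signalling subunit gp130 of the IL-6 family, was at 83.3 CPM in AMB5, a median of 118 and 188 CPM in AMB10, a range of 1.17 that was 0.73 without AMB10. The ligand-binding subunit IL6R had its lowest value in the same library, at 2.23 CPM in AMB5, and its highest, 7.15 CPM, in AMB10 as well (median 4.72, range 1.66). Both subunits of the IL-6 receptor were therefore lowest in AMB5 and highest in AMB10, while IL6 itself had at most 4 counts in any library. LIFR, which pairs with gp130 and lies outside the rule, was likewise at 27.0 CPM in AMB5 and 61.7 CPM in AMB10. The astrocyte marker sum was highest in AMB10, at 3880 CPM, but lowest in AMB7, at 1660 CPM. Its part in these values was not tested.

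The widest of these receptor genes was IL31RA, the gp130-like receptor of IL-31, with 12.1 CPM in AMB7, a median of 4.05 and 1.13 CPM in AMB5. Its range of 3.39 was 2.23 without AMB5. IL31 had no count. IL20RA, a receptor subunit for IL-19, IL-20 and IL-24, was instead lowest in AMB7 at 1.27 CPM, and held 13.5 CPM in AMB8 and 10.8 CPM in AMB10. The remaining 5 libraries held 3.82 to 6.94 CPM of IL20RA, and its range of 3.37 was 1.79 without AMB7. IL12RB2, which carries the IL-12 signal, was likewise lowest in AMB7 at 0.727 CPM and highest in AMB8 at 3.58 and AMB10 at 3.54 (range 2.25). Unlike IL20RA, it was also low in AMB6 at 1.03 CPM, with 1.91 to 2.19 CPM in the remaining libraries. IL17RB, a receptor for IL-25, was also highest in AMB10 at 9.36 CPM and AMB8 at 7.17 CPM, and lowest in AMB9 at 2.29 CPM (range 2.02). IL20RB, the partner chain of IL20RA, did not follow it: it was highest in AMB4 at 2.28 CPM and lowest in AMB5 at 0.529 CPM (range 2.04).

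Other receptors ranged by less than 2, and several by less than 1. IL17RD, known as an inhibitor of FGF signalling, was at 62.7 to 99.5 CPM (median 76.8, range 0.67), and IL17RC at 31.7 to 39.6 CPM (range 0.32, and 0.20 without AMB5), although IL17RC shares 9599 bases on the same strand with CRELD1. IL11RA was at 14.7 to 33.8 CPM (range 1.19), IL27RA at 16.2 to 29.1 CPM, and IL10RA, a chain of the IL-10 receptor, at 12.8 CPM in AMB8 to 25.5 CPM in AMB5 (range 0.99). IL1R1, the signalling receptor of IL-1, was highest in AMB3 at 4.01 CPM and AMB4 at 3.31 CPM, and lowest in AMB5 at 1.20 CPM (range 1.72). Its accessory chain IL1RAP was at 14.5 CPM in AMB5 and 19.2 to 24.4 CPM in the other 7 libraries. The IL1RAP range of 0.74 was 0.34 without AMB5.

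**Figure D3:**
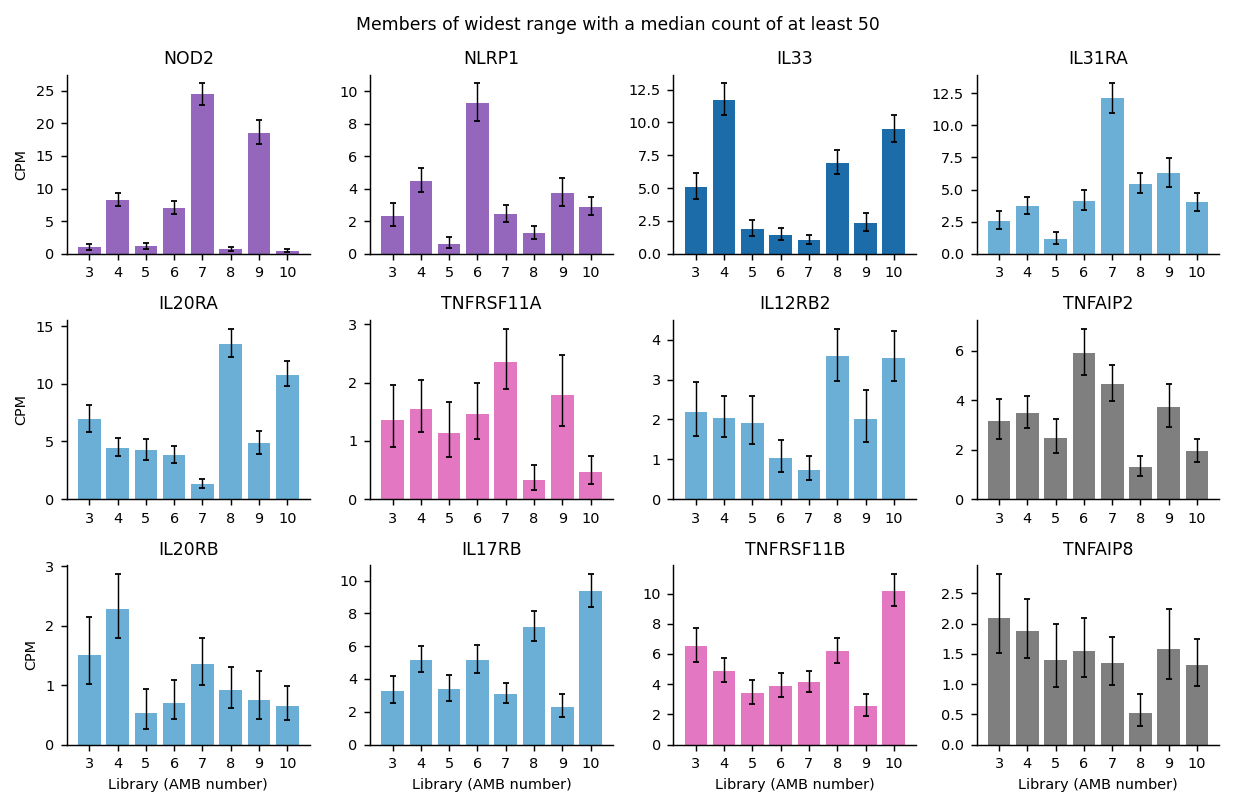
CPM in each library of the 12 members of widest range among those with a median count of at least 50. Bars are the values, error bars their 95% Poisson intervals with counts divided by 2, and the libraries are in numerical order with no group implied. NOD2 is high in AMB7 and AMB9, IL20RA and IL12RB2 in AMB8 and AMB10, and NLRP1 in AMB6.

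Only 4 chemokines passed the filter. CXCL14, a chemokine that neurons are known to make, was at 179 CPM in AMB8, a median of 232 and 265 CPM in AMB5, with a range of 0.57. Together with TNFRSF21 and IL6ST it held 42.0% of all counts of the set. CCL25 (7.54 to 11.2 CPM, range 0.57) and CXCL16 (2.39 to 4.38 CPM, range 0.87), the membrane-bound ligand of CXCR6, were even as well. CCL27, known as a skin chemokine, ranged by 1.90, with 12.6 CPM in AMB7, 9.94 in AMB6, 7.68 in AMB4, 5.99 in AMB9, and 3.35 to 5.42 CPM in the other 4 libraries. IL11RA, its near neighbour on chromosome 13, did not share that order, with its lowest value in AMB7.

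Chemokine receptors past the filter included CXCR4, CCR1 and CCR10. CXCR4, the CXCL12 receptor that guides migrating neuronal precursors in the developing dentate gyrus, was at 9.32 CPM in AMB8 and 7.97 CPM in AMB10, against 3.59 to 5.81 CPM in the other 6 (range 1.37). AMB8 and AMB10 were also the libraries with the highest sums of hippocampal field markers, given above, and their part in the CXCR4 values was not tested. ACKR3, a scavenging receptor for the same ligand that lies outside the rule, was lowest in these 2 libraries at 5.20 CPM in AMB8 and 5.78 CPM in AMB10, and at 12.6 to 24.2 CPM elsewhere. AMB8 and AMB10 thus held the 2 highest values of one CXCL12 receptor and the 2 lowest of the other. CCR1, a receptor of inflammatory CC chemokines on myeloid cells, was at 4.39 CPM in AMB8, a median of 6.52 and 9.99 CPM in AMB3 (range 1.18). CCR10, a receptor of CCL27, was at 0.252 to 0.492 CPM (range 0.88).

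Of the 8 Toll-like receptors past the filter, 5 (62.5%) had a range of at least 1 and none of at least 2, while of the 8 NOD-like receptors 5 and 2 did. Of all genes past the filter 36.1% and 9.0% did. A range of at least 1 was reached by 52.9% of genes between 2 and 10 CPM and 78.3% of those under 2 CPM. TLR9, the endosomal receptor of unmethylated CpG DNA, was at 53.7 CPM in AMB9 to 70.3 CPM in AMB8, with a median of 64.3 and a range of 0.39. Its row runs over chr2:88329868-88348555 on the plus strand, 18688 bases between PPM1M and ALAS1. Exon coordinates were not used here, so whether this row also takes in reads of another or a readthrough transcript was not tested, and its level may not be that of TLR9 alone. TLR9 was highest in AMB8, where the microglial marker sum was lowest, but was at 69.6 CPM in AMB6, where that sum was highest. ALAS1, the adjacent gene, had a range of 0.39 too.

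TLR4, the lipopolysaccharide receptor, was at 5.27 CPM in AMB8, a median of 6.81 and 8.78 CPM in AMB4 (range 0.73). TLR7, a receptor of single-stranded RNA encoded on the X chromosome, was lowest in AMB8 at 1.87 CPM and next in AMB10 at 3.10 CPM, with 3.90 to 5.64 CPM in the other 6, a range of 1.58 that was 0.86 without AMB8. TLR4 and TLR7 were both lowest in AMB8, the library of lowest microglial marker sum. Its part in these values was not tested. TLR1 (1.75 to 3.52 CPM), TLR6 (1.15 to 2.71 CPM) and TLR2 (0.591 to 1.24 CPM), which act in pairs on bacterial lipoproteins, had ranges of 0.99, 1.21 and 1.02. TLR2 overlaps RNF175 on the opposite strand over 45456 bases, and its extreme intervals overlapped with counts divided by 2. TLR5, the flagellin receptor, was at 2.21 to 2.44 CPM in AMB3, AMB6 and AMB10 and at 0.755 to 1.71 CPM elsewhere (range 1.65), and TLR10 stayed under 0.60 CPM. TLR3, the receptor of double-stranded RNA, and TLR8 were below the filter with 8 to 20 and 4 to 22 counts.

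NOD2, the cytosolic sensor of muramyl dipeptide, had the widest range of all members past the filter. It was at 24.5 CPM in AMB7, 18.6 in AMB9, 8.20 in AMB4 and 6.99 in AMB6, and at 1.15 CPM in AMB5, 0.984 in AMB3, 0.642 in AMB8 and 0.377 in AMB10. No library lay between 1.15 and 6.99 CPM. The range was 5.90, with 1752 counts in AMB7 and 27 in AMB10, and the intervals with counts divided by 2 were 22.9 to 26.2 CPM in AMB7 and 0.203 to 0.638 CPM in AMB10. The gene lies at chr18:39117432-39156512 on the minus strand and overlaps only a non-coding gene, LOC108583471, with at most 4 counts. CYLD, the adjacent deubiquitinase gene, was highest in the same 2 libraries, at 117 CPM in AMB7 and 103 CPM in AMB9, but ranged by only 1.19, and SNX20 on the other side by 0.68. RIPK2, the kinase through which NOD2 signals, was at 5.12 to 8.88 CPM with a range of 0.79 and its highest value in AMB5. NOD1, which senses a different peptidoglycan fragment through the same kinase, was at 3.65 CPM in AMB4 to 7.05 CPM in AMB10 (range 0.94).

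NLRP1, an inflammasome sensor known from neurons and epithelia, was the member of next widest range. It was at 9.25 CPM in AMB6, 4.48 in AMB4, 3.72 in AMB9, 1.27 in AMB8 and 0.621 in AMB5, with 2.34 to 2.89 CPM in the remaining 3 (range 3.82). NLRP3, the inflammasome sensor of myeloid cells, was even at 1.09 CPM in AMB8 to 1.75 CPM in AMB6 (range 0.67). NLRP1 and NLRP3 were both highest in AMB6, the library of highest microglial marker sum, but NLRP3 was at 1.69 CPM in AMB7 too. With counts divided by 2, the NLRP3 intervals of AMB6 and AMB8 overlapped. The part of microglial markers in these values was not tested. NLRC4 was at 0.349 to 1.11 CPM (range 1.57), and overlaps SLC30A6 on the opposite strand. NLRC3 was at 0.812 to 2.06 CPM (range 1.31), and NLRX1, a mitochondrial member of the family, at 12.4 CPM in AMB7 to 25.5 CPM in AMB8 (range 1.04). CASP1, the protease that inflammasomes activate, was at 0.448 CPM in AMB8 and 0.898 to 1.40 CPM elsewhere.

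**Figure D4:**
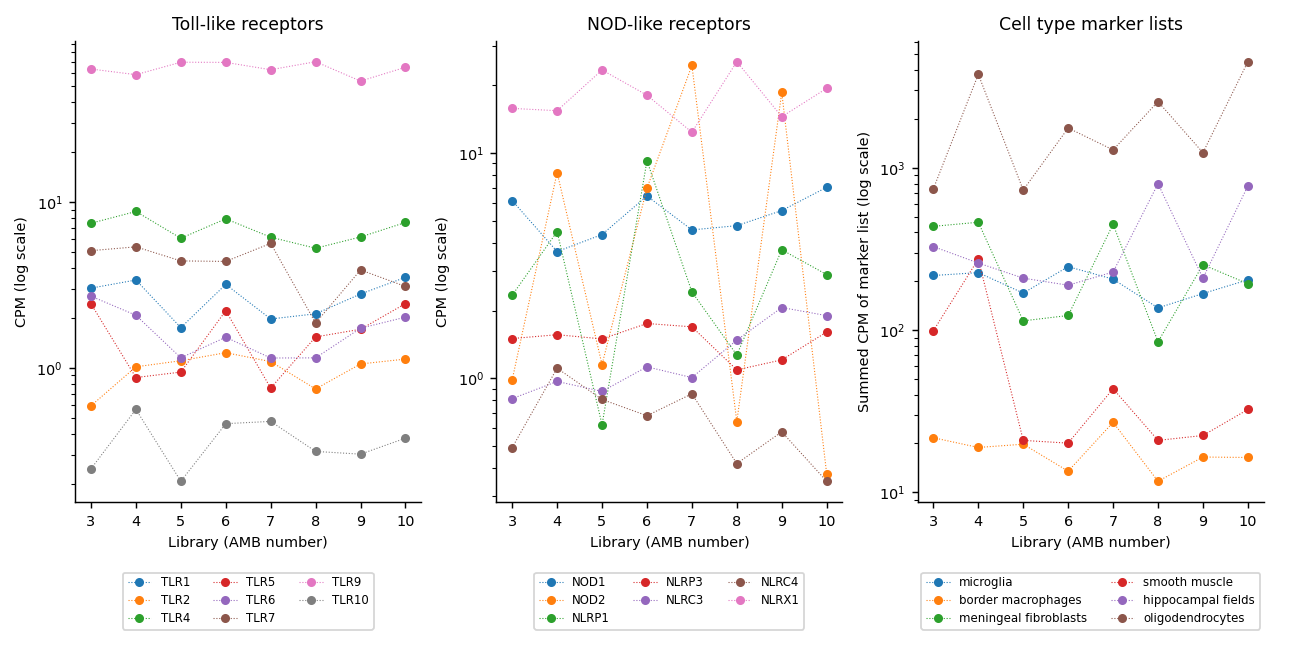
CPM (log scale) of the Toll-like and NOD-like receptors named in the text, and summed CPM of 6 cell type marker lists, in the 8 libraries; dotted lines only join points of the same gene or list, and libraries have no order. TLR9 is nearly flat, NOD2 falls into 4 high and 4 low libraries, and hippocampal field markers stand out in AMB8 and AMB10.

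TNF superfamily ligands and receptors made up 20 of the genes past the filter. TNFSF10, the death ligand TRAIL, was at 7.61 CPM in AMB7, a median of 9.54 and 13.7 CPM in AMB3 (range 0.84). TNFSF13, known as APRIL, was at 3.16 CPM in AMB8 and 4.09 to 5.29 CPM elsewhere (range 0.74, and 0.37 without AMB8), and TNFSF13B, known as BAFF, at 1.61 to 3.60 CPM (range 1.14). The ligands of widest range were low in level. TNFSF15, known as TL1A, was at 2.08 CPM in AMB7 and 0.179 CPM in AMB8 (median 0.630, range 3.30), and TNFSF9, the 4-1BB ligand, at 1.38 CPM in AMB5 and 0.252 CPM in AMB7 (range 2.30, and 1.38 without AMB7). AMB3, AMB8 and AMB10 held 2.98 to 3.24 CPM of TNFSF4, the OX40 ligand, and AMB9 held 0.830 CPM (range 1.92).

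TNFRSF21, known as death receptor 6 and studied in axon pruning, had a median of 157 CPM, with 191 CPM in both AMB8 and AMB10 and its lowest value, 100 CPM, in AMB7. Its range of 0.93 was 0.60 without AMB7. TNFRSF19, known as TROY, was at 13.3 CPM in AMB7 to 25.3 CPM in AMB10 (range 0.93), and it overlaps MIPEP on the opposite strand. The 2 receptors of TNF itself were similar in evenness. TNFRSF1A was at 10.7 to 19.1 CPM (median 14.2, range 0.83) and TNFRSF1B at 8.02 to 15.2 CPM (range 0.92), both lowest in AMB9. TNFRSF25, the receptor of TNFSF15, was at 4.73 to 9.09 CPM (range 0.94).

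TNFRSF8 and the osteoclast regulators TNFRSF11A and TNFRSF11B differed more. TNFRSF8, known as CD30, was at 1.84 CPM in AMB10, 1.68 in AMB5 and 0.182 CPM in AMB7 (range 3.11, and 2.04 without AMB7). TNFRSF11A, the receptor RANK, was at 2.36 CPM in AMB7, 0.461 in AMB10 and 0.328 in AMB8 (range 2.72), while its ligand TNFSF11 was below the filter. The decoy receptor of that ligand, TNFRSF11B or osteoprotegerin, was at 10.2 CPM in AMB10, a median of 4.52 and 2.57 CPM in AMB9 (range 1.97). RANK and osteoprotegerin had opposite values in AMB10, where RANK was the second lowest of 8 and osteoprotegerin the highest. TNFRSF12A, the TWEAK receptor, was at 0.251 CPM in AMB9 and 0.552 to 1.06 CPM elsewhere (range 1.93, and 0.90 without AMB9). A row outside the rule, LOC101003015, is described in the table as its ligand and held 19.4 to 30.2 CPM.

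The remaining TNF-named genes are induced by TNF or related to such genes. TNFAIP3, known as A20, which edits ubiquitin to restrain NF-κB, was at 17.5 CPM in AMB9 and 8.33 to 12.6 CPM elsewhere (range 1.07, and 0.59 without AMB9). TNFAIP2 was at 5.92 CPM in AMB6, a median of 3.33 and 1.31 CPM in AMB8 (range 2.14). TNFAIP8 was at 0.522 CPM in AMB8 and 1.31 to 2.09 CPM elsewhere (range 1.93, and 0.66 without AMB8). Here the single library AMB8 set most of the range. TNFAIP1 was even, at 39.6 to 56.1 CPM (range 0.50), as was IL4I1, an amino acid oxidase gene that overlaps NUP62 on the same strand, at 1.33 to 1.91 CPM.

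Below the filter, 31 genes reached 20 counts in at least 1 library and 56 had counts but never 20. In several of them the counts came from 1 to 4 libraries. IL22, an epithelial-repair cytokine of lymphoid cells, had 104 counts in AMB7, 68 in AMB6, 61 in AMB4 and 40 in AMB9, and 0 to 4 in the other 4. Those 4 libraries are the ones in which NOD2 was high. CXCL10, the interferon-induced ligand of CXCR3, had 123 counts in AMB7, 46 in AMB6, 34 in AMB4, 18 in AMB5, 14 in AMB9, 6 each in AMB3 and AMB10, and 0 in AMB8, where 0 counts allows up to 0.0448 CPM. CXCL9, another interferon-induced chemokine, had 2 counts in AMB4 and none elsewhere.

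IL7, the lymphocyte growth factor, had 70 counts in AMB10, 25 in AMB8 and 0 in AMB6 and AMB7. IL1RN, the natural antagonist of IL-1, had 58 counts in AMB4 and 0 to 8 in the others. Counts of both genes thus gathered in 1 or 2 libraries. IL22RA1, the receptor chain of IL-22, had 79 counts in AMB7 and 30 in AMB5, and 0 in AMB6, where IL22 had 68. NLRP7 had 65 counts and NLRP2 43 counts in AMB3, and neither passed 17 elsewhere. CCL19, a homing chemokine, had 55 counts in AMB8 and 27 in AMB10, and TNFSF18, the GITR ligand, 71 and 24 counts in the same libraries, against at most 13 and 16 elsewhere. AMB8 and AMB10 were the 2 highest libraries for both genes.

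Several classical mediators of acute inflammation stayed below the filter. IL1B passed it, with 9 to 39 counts per library, and TNF and CCL3 had no row under these symbols. CCL2 had 5 to 32 counts, CCL5 2 to 16, CXCL8 0 to 6, IL15 0 to 6 and IL6 0 to 4. IL1A had between 5 and 25 counts in each library. With counts divided by 2, the intervals of the highest and lowest library overlapped in CCL5, CXCL8, IL15, IL6 and IL1A but not in CCL2, which was at 0.780 CPM in AMB9 and 0.0746 CPM in AMB8. The other genes that reached 20 counts were CCL8, CCR6, CXCL1, CXCR2, IL12RB1, IL17B, IL1RL1, IL25, IL2RA, IL36G, IL5RA, NLRP9, NLRP10, NLRP14, TLR3, TLR8, TNFRSF4, TNFRSF9, TNFRSF10C and TNFRSF13C. Their highest counts lay between 20 and 55.

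**Figure D5:**
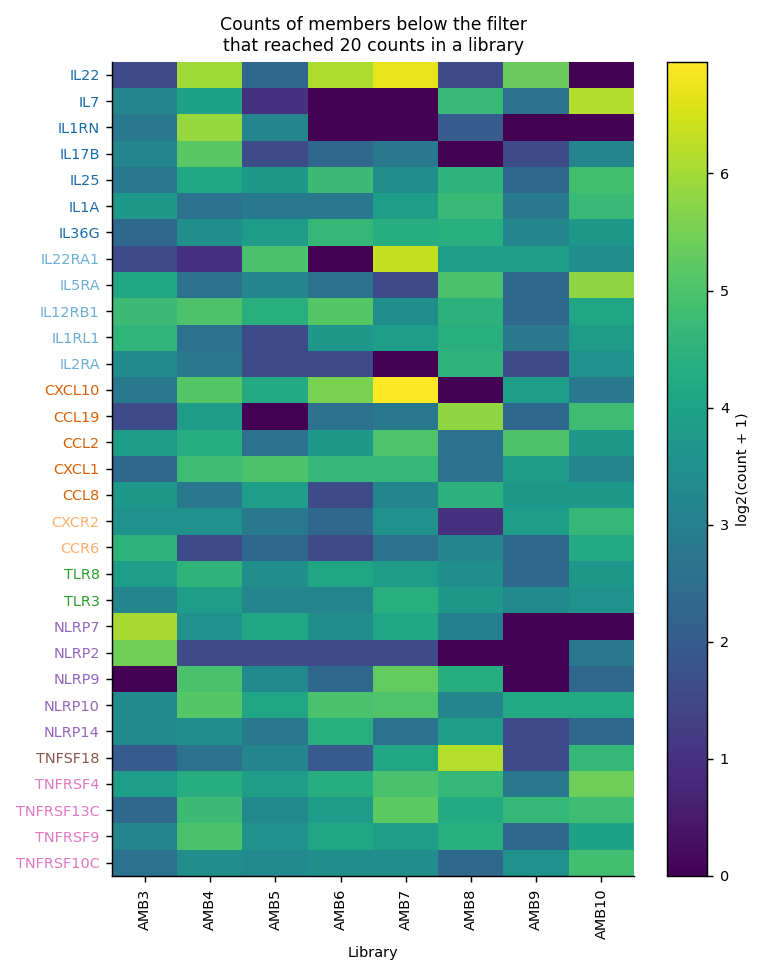
Estimated counts, on a colour scale of log2(count + 1), in the 8 libraries for the members below the filter that reached 20 counts in at least 1 library. IL22 and CXCL10 are brightest in AMB7, IL7 in AMB10, and NLRP2 and NLRP7 in AMB3.

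Highest and lowest libraries of members are set here beside those of all genes past the filter. The lowest value of members fell in AMB8 in 18 of 86 genes (20.9%), against 12.3% of all genes. AMB7 was lowest for 17 members (19.8%), against 15.1% of all genes. AMB9, the shallowest library, was lowest for 15 (17.4%), against 9.51%. AMB6 held the lowest value of 4 members (4.65%), where 12.4% of all genes were lowest. The share of members highest in a library lay between 4.65% in AMB9 and 19.8% in AMB10, against 8.93% and 16.7% of all genes. The libraries named were picked after their values were seen, and these differences were not tested. Over the 28 pairs of libraries, the pair that held the 2 highest values of most members was AMB8 and AMB10, with 12 of 86 members, but 11.9% of all genes had that order too. It included CXCR4, IL4R, IL6ST, IL12RB2, IL17RB, IL20RA, TNFRSF19, TNFRSF1B and TNFRSF21. The same pair held the 2 lowest values of 10 members (11.6%), among them CXCL14, IL10RA, IL18, NLRC4, NOD2 and TLR7, where 11.6% of all genes had that order. Both counts lie near the share of all genes.

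A pair of libraries with a share above the background was AMB3 and AMB4, which held the 2 highest values of 8 members (9.3%), namely IL16, IL1R1, IL20RB, IL2RG, TLR6, TNFAIP8, TNFRSF12A and TNFSF10, where 1.6% of all genes had that order. Smooth muscle markers also had their 2 highest sums there, at 99.1 CPM in AMB3 and 274 CPM in AMB4 against 20.1 to 43.5 CPM elsewhere. So did endothelial markers, at 208 CPM in AMB3 and 224 CPM in AMB4 against 151 to 202 CPM elsewhere. Meningeal fibroblast sums were high in both, at 436 and 462 CPM, but also in AMB7 at 449 CPM. The part of these markers was not tested. AMB5 and AMB8 held the 2 lowest values of 8 members (9.3%), namely CCR1, IL13RA1, IL17RD, IL1RAP, NLRP1, TLR4, TNFAIP3 and TNFSF15, where 3.63% of all genes had that order. These pairs were picked after their values were seen, among 56 counts over pairs and directions. The 4 libraries high for NOD2 held the 4 highest values of 7 members (8.14%), where 5.42% of all genes had that order: CCL27, IL17RD, NOD2, TNFAIP1, TNFAIP2, TNFRSF11A and TNFSF15. NOD2 itself chose these libraries, and without it the count was 6 of 85 (7.06%), near the share of all genes.

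In 5 of 6 lists of signalling partners the median range was below the 1.09 of the members, though the lists also differ in level. The list of chemokines and receptors outside the rule had a median of 1.58, with 3 of 5 genes past the filter at a range of at least 1. Other cytokines and receptors outside the rule had a median of 1.08, with 7 of 9. Over all genes past the filter the median was 0.77, and 36.1% had a range of at least 1. Only the adaptor and kinase list and the NF-κB list had medians below 0.77. Of 16 adaptors and kinases of the Toll-like and IL-1 receptors, all past the filter, 4 had a range of at least 1, with a median range of 0.69. MYD88, the adaptor shared by most of these receptors, was at 5.49 CPM in AMB3 to 11.2 CPM in AMB7 (range 1.02), and the inhibitory kinase IRAK3 at 10.2 CPM in AMB5 to 22.7 CPM in AMB10 (range 1.15). Of 10 NF-κB genes 3 had such a range, with a median of 0.63. The TNF receptor complex had 4 of 9 (median 0.96), cytosolic nucleic acid sensors 1 of 6 (median 0.80), JAK and STAT genes 6 of 12 (median 0.92) and inflammasome and NOD partners 5 of 8 (median 1.25). Among them STAT6, which carries the IL-4 and IL-13 signal, ranged by 2.07, from 5.71 CPM in AMB5 up to 24.1 CPM in AMB8. STAT2, which acts downstream of type I interferon, was at 45.2 CPM in AMB10 and 39.1 CPM in AMB8, the 2 highest libraries. CX3CL1, the neuronal ligand of the microglial receptor CX3CR1, was at 475 to 675 CPM (range 0.51), and CX3CR1 at 13.6 CPM in AMB8 to 40.6 CPM in AMB4 (range 1.58).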

How the data were processed

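The deposited table gives, per gene, a raw and a normalized value for 8 hippocampal libraries. Per the file headers the raw columns hold RefSeq-based gene counts, and they are estimated counts, since all 86 members past the filter had a fractional value in some library. The authors' normalized columns are log2 values. DESeq is named, with no version, per the submitters' processing notes; not given in the sources used here are the aligner, counter, strand setting and genome build. All 190 genes matched the RefSeq table of the assembly Panubis1.0 by symbol and by start and end. Exon lengths were not used, so levels are not compared between genes.

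Estimated counts were rounded, filtered with edgeR 4.0.16 (filterByExpr, minimum count 10, no groups) and scaled by TMM factors in R 4.3.3. On simulated data, the scaling was checked to recover known changes in 1 library and to place that library highest or lowest. Only well-counted genes were changed there, and the range itself was not tested. All libraries were unassigned, so no test was run. Depth was 40404878 to 71648654 counts; intervals are exact Poisson (95%), and 0 counts allows 3. Named were the 5 members of highest median CPM and the 3 of widest range per role, the 15 of widest range with a median count of at least 50, those below the filter reaching 20 counts, and a list of 53 genes, of which 47 had a row. 1 named gene is not reported here. Members and lists were chosen with earlier results of these data known. Genes named outside these rules were chosen after their values were seen. Alternatives were total counts, DESeq2 1.42.0 size factors, a prior count of 0.5, the deposited log2 values, a minimum count of 30, no filter and leaving out each library. The split by level and the intervals on counts divided by 2 were added after the data were seen.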

Additional observations from a re-analysis of the deposited data

Results flagged for a closer look

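Of 64 named genes past the filter, 3 had a library whose gap to the nearest other library was large for the range of all 8 (over 0.526 of it), and chance flags about 1 in 20 genes. IL1RAP, the accessory chain of the IL-1 receptor, was at 14.5 CPM in AMB5, and the next lowest value was 19.2 CPM in AMB8. TNFAIP8, a TNF-induced gene, was at 0.522 CPM in AMB8, and the next was 1.31 CPM in AMB10. TNFRSF12A, the TWEAK receptor, was at 0.251 CPM in AMB9, and the next was 0.552 CPM in AMB5.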

How the results depend on the processing

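No paired analysis was possible because no library has a group or a replicate number. With no filter, 173 genes were counted, 124 with a range of at least 1, 56 with at least 2, and a median range of 1.60. With a minimum count of 30, 7 genes had a range of at least 2, against 13 at a minimum of 10. Under total counts, DESeq2 size factors, a prior count of 0.5 or the deposited log2 values, 48 to 49 genes had a range of at least 1 and 13 to 16 at least 2. Leaving out each library gave 84 to 88 genes past the filter, 41 to 47 with a range of at least 1, 9 to 13 with at least 2, and median ranges of 0.97 to 1.08. Of single-gene ranges, 24 of 506 moved when a library was left out, and 1 of 371 under the other settings. Moved means a change beyond the counting error of the highest and lowest counts. Many of these comparisons could hardly move. A library that is neither highest nor lowest for a gene barely affects its range when left out. No filter and a minimum count of 30 reused the main ranges. Depth limits most the 87 genes with counts below the filter.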
